A study of Saccharomyces cerevisiae with 15 samples.

Results

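The stretch described here is the 5′ part of the gene for 25S rRNA, the RNA of the large ribosomal subunit, in budding yeast (Saccharomyces cerevisiae). It is nucleotides 1 to 1132 of the 3396 of 25S and is called the 5′ stretch, and the following 2 parts of the same length are called the middle and the 3′ stretch. It was taken by coordinate alone, as positions 3252 to 4383 of the 35S precursor gene, and no measured value entered the choice. The 5′ stretch holds 1132 of the 6858 positions of that gene, and all 1132 passed the filter on low values in every comparison. On the R64 assembly it is chrXII:463187-464318, minus strand, exonic in RDN25-2 and within RDN37-2. The second annotated copy, RDN25-1, differs from it at 0 positions, so every value is a sum over the repeated copies. Nucleotides are numbered below from 1 at the 5′ end of 25S.

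RNA polymerase I (Pol I) transcribes the 35S precursor in a single pass, through ETS1, 18S, ITS1, 5.8S, ITS2, 25S and ETS2. The spacers are then removed, and the exonuclease Rat1 trims ITS2 back to the mature 5′ end of 25S. The 5′ stretch of 25S folds into domain I, which pairs with 5.8S, and much of domain II. Native elongating transcript sequencing (NET-seq) purifies Pol I with its RNA and reads the 3′ end of each RNA, which for a nascent RNA is the last nucleotide added. Libraries of this kind also carry fragments of mature rRNA, and within 25S an end of such a fragment and a nascent end cannot be told apart.

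The series tested what divalent cations and nucleases do to Pol I NET-seq. All 15 libraries came from a wild-type strain whose Pol I subunit RPA135 carried a histidine and HA tag, grown at 30 °C, and the labels set them apart only by how the lysate of frozen, cryogenically broken cells was handled before immunoprecipitation. The 3 untreated libraries had no cation, no nuclease and no incubation. The 3 CaCl2 libraries were given 5 mM CaCl2 and held for 2 minutes at 37 °C, and the 3 CaCl2 + MNase libraries had in addition 100 U/µL of micrococcal nuclease, which needs calcium. The 3 MnCl2 libraries were given 10 mM MnCl2 and kept on ice for 20 minutes and for another 30 minutes after EDTA, and the 3 MnCl2 + DNase I libraries had in addition 100 U/mL of DNase I, which cuts DNA. All 4 treated groups received EDTA to 5 mM, which binds divalent cations. In the manganese groups this was less than the 10 mM of MnCl2, and whether DNase I was fully stopped was not tested. One sentence of the labels names DNase I where MNase is meant by context, and the group names were followed. No lysate was incubated without a cation, so a cation and its incubation cannot be told apart. The labels do not say that replicates of the treated groups were separate cultures, and p-values measure only the spread between libraries.

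Values are CPM, the reads ending at a position scaled to 1000000 reads on the 35S gene of that library. The 35S depth was 2835790 to 13234600 reads, and 479198 to 2434580 of these ended in the 5′ stretch. One read was worth 0.0756 to 0.353 CPM. The spacers, which mature rRNA lacks, held 6.85% ± 0.279 (SD, n = 3) of the signal in untreated, 4.08% ± 1.38 in CaCl2, 4.95% ± 0.139 after CaCl2 + MNase, 1.40% ± 0.188 after MnCl2 alone and 1.10% ± 0.0382 once DNase I was added to it. It was lower in every treated library than in every untreated one, and among CaCl2 libraries it was 3.71%, 2.93% and 5.61%. Its part in the differences below was not tested.

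The stretches and single positions that the results turn on are shown here as RNA of the minus strand, 5′ to 3′, from the deposited tables, whose base matched R64 at all 1132 positions. Capitals in the first sequence mark the first 60 nucleotides of 25S after the last 20 of ITS2 (chrXII:464259-464338), where low positions changed places between groups. Capitals in the next 4 mark, in order, a dip that was deepest with manganese (chrXII:463651-463684), the longest run of positions higher with MnCl2 (chrXII:463801-463841), the 5-position peak that was highest with MnCl2 + DNase I (chrXII:463787-463811), and the longest run lower with MnCl2 (chrXII:463291-463315).
25S 5′ end: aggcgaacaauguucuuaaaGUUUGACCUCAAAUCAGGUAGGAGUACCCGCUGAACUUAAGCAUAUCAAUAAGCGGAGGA
Nucleotides 649 to 655: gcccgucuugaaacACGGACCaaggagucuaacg
Nucleotides 483 to 513: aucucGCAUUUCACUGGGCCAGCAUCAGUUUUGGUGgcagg
Nucleotides 518 to 522: uugguggcagGAUAAauccauagga
Nucleotides 1009 to 1023: ugauuAGAGGUUCCGGGGUCgaaau

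The single positions are shown with 10 nucleotides on each side and the 3′-terminal nucleotide of the RNA in capitals. They are the 4 highest positions in untreated libraries, the tenth highest, the highest by mean with MnCl2, and the position with the largest rise from CaCl2 to MnCl2.
Nucleotide 1098 (chrXII:463211-463231): uggacauuugAaugaagagcu
Nucleotide 372 (chrXII:463937-463957): uggaaagaugAaaagaacuuu
Nucleotide 709 (chrXII:463600-463620): acgcguaaugAaagugaacgu
Nucleotide 1022 (chrXII:463287-463307): gguuccggggUcgaaaugacc
Nucleotide 238 (chrXII:464071-464091): uguggcgaggAgugcgguucu
Nucleotide 247 (chrXII:464062-464082): gagugcgguuCuuuguaaagu
Nucleotide 980 (chrXII:463329-463349): agaagcucguAucaguuuuau

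Signal along the 5′ stretch was uneven in every group. In untreated libraries the mean of a position ran from 4.31 to 1756 CPM, with a median of 116 CPM and a middle range from 64.8 to 196 CPM. The highest position stood 15.1 times above the median position in untreated and 15.2 times in MnCl2 + DNase I libraries, against 10.0 to 11.3 times in the other 3 groups. The pattern was repeatable. Across the 1132 positions, Spearman's rho between libraries of a group was 0.971 to 0.986 for untreated, 0.900 to 0.962 for CaCl2, 0.948 to 0.972 for CaCl2 + MNase, 0.966 to 0.993 for MnCl2 and 0.988 to 0.993 where DNase I was added. Positions are not independent, so these are descriptions. CaCl2 libraries were the least alike, with a median coefficient of variation per position of 15.5% against 7.10% to 10.1% in the other groups. CaCl2 replicate 2 was the least like the rest, with a rho of 0.907 and 0.900 to the other CaCl2 libraries. The same 10 measures and 15 dinucleotides described below passed without it.

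**Figure D1:**
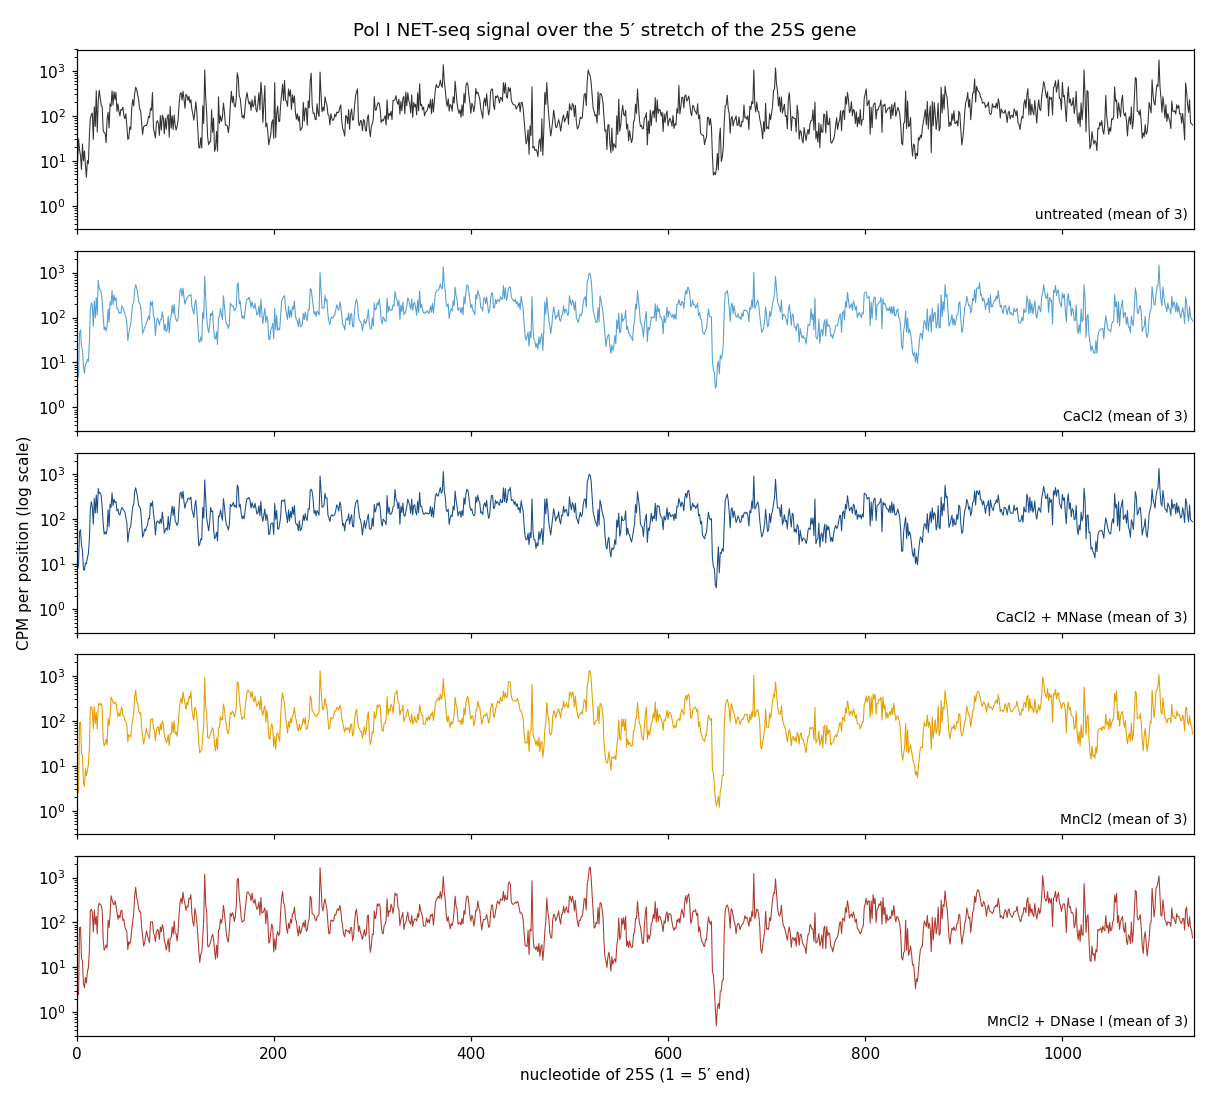
Mean CPM of 3 libraries at each nucleotide of the 5′ stretch of 25S (x axis, nucleotide from the 5′ end; y axis, CPM on a log scale), one panel per group. The peak at nucleotide 1098 and the dip around nucleotides 649 to 655 are present in all 5 panels, and the dip is deepest in the 2 manganese panels.

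The first question was how much of the gene's signal fell in the 5′ stretch. It was close to 18% of the 35S signal in all groups. The share was 17.9%, 18.3% and 17.9% in the untreated libraries (mean 18.03% ± 0.205, SD, n = 3). It was 18.4% ± 0.221 with CaCl2 and 18.3% ± 0.104 with CaCl2 + MNase. With MnCl2 it was 17.5% ± 0.510, spread from 16.9% to 17.9%, and with MnCl2 + DNase I it was 17.7% ± 0.265. Between groups the spread was larger than within them (exact permutation test over 15 libraries, p = 0.0103, adjusted p = 0.0257 over 14 measures). The adjusted exact p was 0.111 without replicate 1 of each group, 0.235 without replicate 3 and 0.0634 with the replicate number as a block, so this difference is not secure. For any single pair of groups the smallest exact p that 3 against 3 libraries allow is 0.1.

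Set against the 3′ stretch, the 5′ stretch stood higher with calcium and lower with manganese than in untreated libraries. Its ratio to the 3′ stretch of 25S was 0.812 ± 0.0133 (SD, n = 3) in untreated libraries, 0.885 ± 0.0168 with CaCl2, 0.883 ± 0.00638 when MNase was added, 0.735 ± 0.0219 with MnCl2 and 0.744 ± 0.0204 when DNase I was added. All 6 calcium libraries lay above all 3 untreated ones and all 6 manganese libraries lay below them (exact permutation p = 5.35e-05, adjusted p = 0.000749; 0.0667 without replicate 3 of each group). The ratio to the middle stretch was 0.957 in untreated, 0.956, 0.896 and 0.980 in the CaCl2 libraries (mean 0.944, or 0.968 without replicate 2), 0.973 in CaCl2 + MNase, 0.833 in MnCl2 and 0.841 in the DNase I libraries (adjusted exact permutation p = 0.00421; 0.119 without replicate 1, 0.0741 without replicate 3 and 0.00342 without CaCl2 replicate 2). Whether CaCl2 lies below or above untreated thus rests on replicate 2, while both manganese groups lay below all other libraries. The ratio to 18S was 0.590 in untreated libraries and 0.537 to 0.547 in the 4 treated groups (adjusted exact permutation p = 0.0257). That last difference did not pass when any one replicate number was left out (0.130 to 0.235). Most of these ratio changes came with a larger move of the other part's share of the 35S signal, while the 5′ stretch stayed close to 18%. The 3′ stretch held 22.2% untreated, 20.8% with CaCl2 and 23.8% with MnCl2. The middle stretch held 18.8% untreated and 21.0% with MnCl2, and 18S held 30.6% untreated and 33.8% with CaCl2. The 5′ stretch was also cut into 4 equal segments of 283 nucleotides. The segment at positions 3818 to 4100 of the gene held 19.1% of the stretch's signal in untreated and 21.1% in CaCl2 libraries (adjusted exact permutation p = 0.0379; 0.182 without replicate 1, 0.316 without replicate 3 and 0.0634 with the replicate block), and CaCl2 replicate 2, at 22.8%, was its highest library. Without that library the CaCl2 mean was 20.3% (adjusted exact permutation p = 0.0275). The other segments did not pass (adjusted exact permutation p = 0.447, 0.507 and 0.193).

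**Figure D2:**
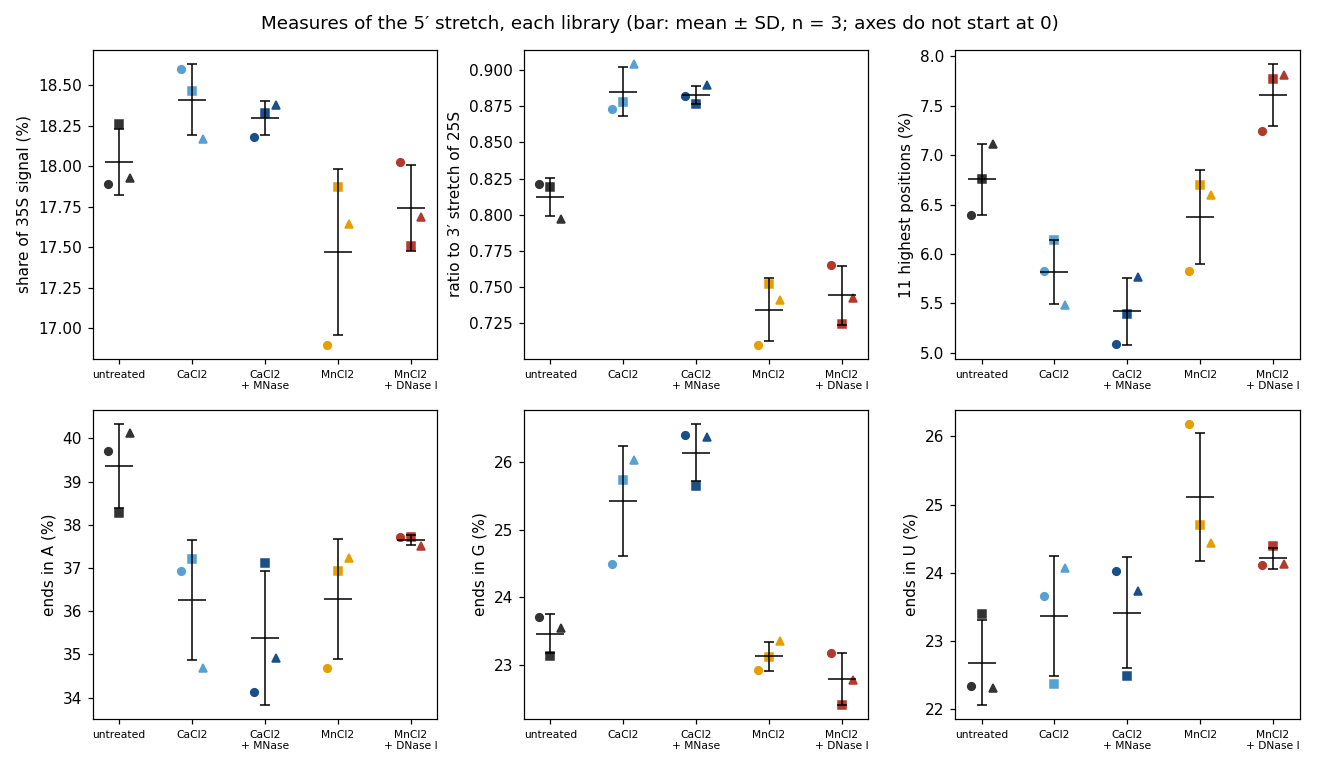
Measures of the 5′ stretch in each of 15 libraries (y axes: percent or ratio, as labelled; symbols mark replicates 1, 2 and 3; bars give mean ± SD, n = 3). The ratio to the 3′ stretch of 25S separates the calcium, untreated and manganese libraries without overlap, and the share of ends in G is highest in the 6 calcium libraries.

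The highest positions held less of the signal with calcium. The 11 highest positions of each library held 6.75% ± 0.364 (SD, n = 3) of the stretch's signal in untreated libraries, 5.82% ± 0.325 with CaCl2 and 5.42% ± 0.339 when MNase was added. They held 6.37% ± 0.476 with MnCl2 and 7.61% ± 0.316 when DNase I was added (exact permutation p = 0.000248, adjusted p = 0.00116; 0.0667 without replicate 3 of each group). Both calcium groups lay below all untreated libraries and MnCl2 + DNase I lay above them, while MnCl2 overlapped them. Each of the 3 MnCl2 + DNase I libraries exceeded each MnCl2 library, by 1.24 percentage points on average, whereas MNase on top of CaCl2 changed the share by -0.400 points with overlapping libraries. The 2 nuclease effects differed with an exact permutation p = 0.01, which was 0.14 after adjustment over the 14 measures and did not pass.

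The second question was at which nucleotides the treatments changed the signal. Against untreated libraries, CaCl2 changed 314 of the 1132 positions (limma, adjusted p under 0.05), 208 higher and 106 lower. This is 27.7%, against 32.3% of all positions tested on the gene, of which 16.1% were higher and 16.3% lower. The median log2 change was 0.12 in the 5′ stretch and 0.07 over all positions. The count depended on single libraries: it was 136, 166 and 116 without untreated replicate 1, 2 or 3, 204 without CaCl2 replicate 1 and 429 without CaCl2 replicate 2. With MNase as well, 573 positions changed, 389 higher and 184 lower, or 50.6% against 54.7% of all positions (32.2% higher and 22.5% lower), with a median log2 change of 0.14 against 0.11.

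With MnCl2, 730 positions of the 5′ stretch changed, 351 higher and 379 lower. The share was 64.5%, against 72.9% over the gene (28.6% higher and 44.2% lower), with a median log2 change of -0.03 against -0.19. With MnCl2 + DNase I, 778 changed, 359 higher and 419 lower, or 68.7% against 75.7% (27.5% higher and 48.2% lower), with medians of -0.04 and -0.24. From CaCl2 to MnCl2, 377 changed, 112 higher and 265 lower, or 33.3% against 42.2% (9.54% higher and 32.6% lower). That count was 233, 242 and 205 without MnCl2 replicate 1, 2 or 3, and 404 with the replicate number as a block. Every share lies below that of the whole gene, which includes the spacers. Among the 3 stretches of 25S, the 5′ stretch had the lowest share with CaCl2, CaCl2 + MNase and MnCl2 against untreated, and lay between the others with MnCl2 + DNase I. From CaCl2 to MnCl2 it had the highest, at 33.3% against 26.9% in the middle and 29.7% in the 3′ stretch.

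The split into higher and lower positions depended on the scaling. Scaling by the median ratio over all positions moved the libraries by -0.204 to 0.156 on the log2 scale. Under it the changed positions were 144 higher and 129 lower with CaCl2, 315 and 244 with CaCl2 + MNase, 443 and 307 with MnCl2, and 492 and 299 with MnCl2 + DNase I. From CaCl2 to MnCl2 the majority turned over, to 223 higher and 114 lower. The directions of the calls named below did not turn under any scaling that was run.

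Few or no positions passed the test when a nuclease was added. CaCl2 + MNase against CaCl2 gave 0 changed positions by limma (15 at an unadjusted p under 0.05, against 156 of the 6841 positions tested on the gene, of which 0% were called). Their libraries did not overlap at 85 positions, and over the gene at 8.11%. The libraries of these 2 groups crossed group lines. CaCl2 replicate 3 had a rho of 0.986 with CaCl2 + MNase replicate 3 and 0.974 with replicate 1, and CaCl2 replicate 1 had 0.978 with CaCl2 + MNase replicate 2, each above any rho within CaCl2. Deviations from the group means over all positions correlated at 0.468 and 0.496 for the first 2 of these pairs and at 0.516 for the last, against -0.695 between CaCl2 replicate 3 and CaCl2 + MNase replicate 2. The spread within the groups that the test uses includes this, so the count of 0 does not show that MNase left the positions as they were. MnCl2 + DNase I against MnCl2 gave 2 (240 at an unadjusted p under 0.05, against 20.5% of all positions, of which 0.238% were called), and edgeR on the recovered reads gave 3. These libraries did not overlap at 301 positions, or 26.6%, and over the gene at 26.6% as well. Neither count is adjusted for the number of positions tested, so neither can be set against the 2 calls. With 3 libraries in a group, few calls do not show that few positions changed. Leaving out a MnCl2 library gave 37, 1 and 21 for replicates 1, 2 and 3, and leaving out any one MnCl2 + DNase I library gave 0. Nucleotide 206 rose from 32.4, 35.3 and 37.9 CPM to 58.1, 58.3 and 53.7 CPM (log2 change 0.67 ± 0.13 SE, adjusted p = 0.0402). Nucleotide 328 fell from 150, 123 and 131 CPM to 80.8, 85.7 and 89.7 CPM (log2 change -0.65 ± 0.11, adjusted p = 0.0278). Both lost the call with the replicate block (adjusted p = 0.0671 and 0.0662) and without any one MnCl2 + DNase I library (0.128 to 0.303), and the first also without MnCl2 replicate 2 (0.0792). The effects of the 2 nucleases differed at 0 of 1132 positions by a limma interaction over 12 libraries (95 at an unadjusted p under 0.05). Over the gene 0 of 6847 positions were called, with 668 at an unadjusted p under 0.05.

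**Figure D3:**
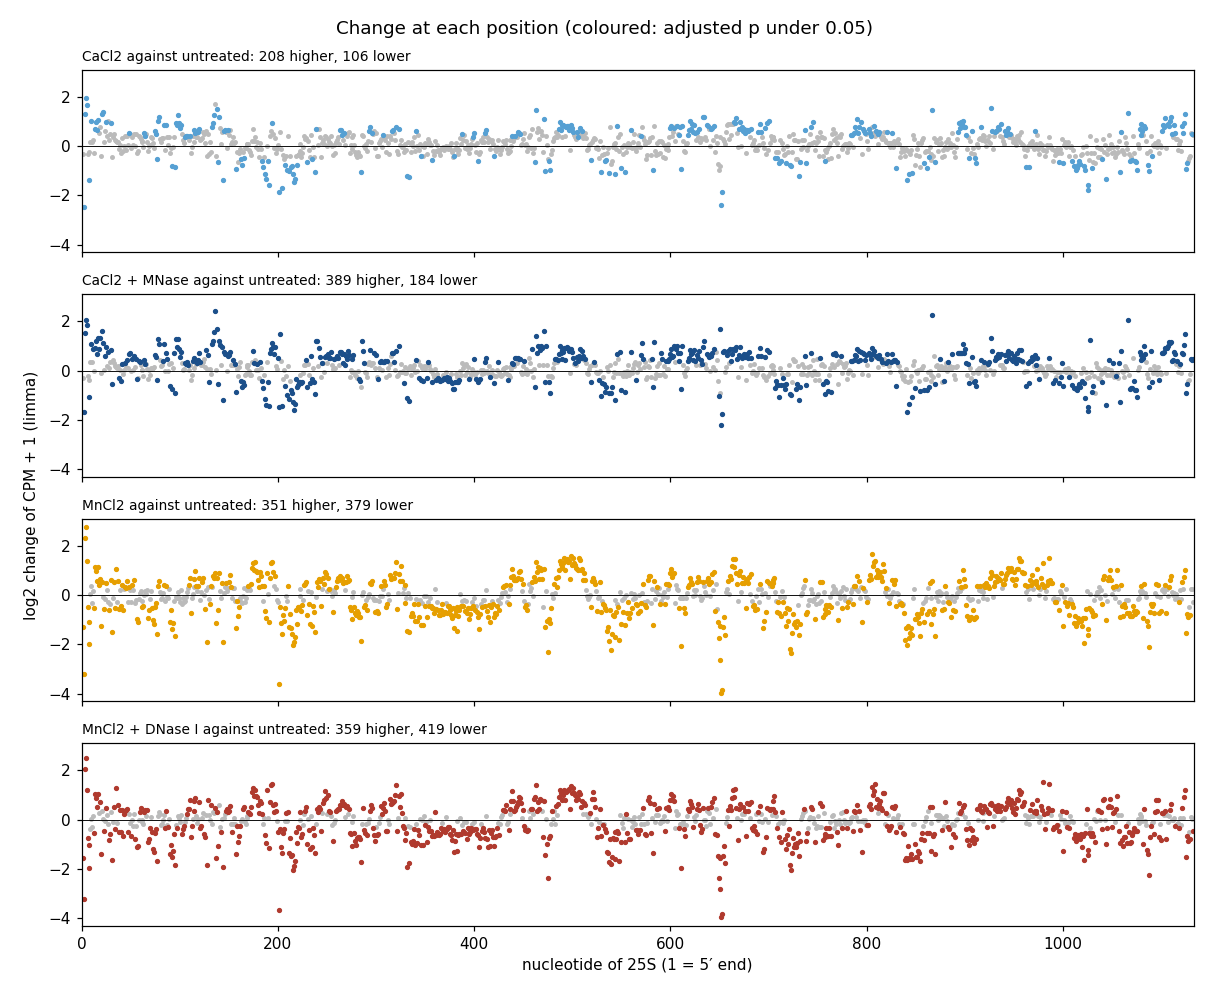
Log2 change of CPM + 1 against untreated at each nucleotide of the 5′ stretch (limma, 3 against 3 libraries; x axis, nucleotide of 25S; y axis, log2 change), one panel per treated group, with positions at an adjusted p under 0.05 in colour. CaCl2 changed 314 positions and MnCl2 changed 730, and the points below -3 in the 2 manganese panels include nucleotides 652 and 653.

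The 10 highest positions in untreated libraries ended in A at 6, in U at 2 and in C at 2, and none ended in G. They were chosen by their untreated level, so their changes against untreated are a description. Over the gene, 16.3% of positions were called lower with CaCl2 and 22.5% with CaCl2 + MNase. With MnCl2 it was 44.2% and with MnCl2 + DNase I 48.2%. Called higher were 16.1%, 32.2%, 28.6% and 27.5% in the same order. Of the 10, 5 were called lower and 0 higher with CaCl2, and 8 and 0 with CaCl2 + MNase. With MnCl2 6 were lower and 1 higher, and with MnCl2 + DNase I 5 lower and 1 higher, near the shares called lower over the gene. Some of these calls were lost under at least 1 alternative: nucleotides 163, 519 and 709 with CaCl2, nucleotides 130, 372, 519 and 1098 with CaCl2 + MNase, and nucleotide 519 with MnCl2. With MnCl2 + DNase I the calls at nucleotides 372 and 709 were lost under median-ratio scaling (adjusted p = 0.147 and 0.363) and by edgeR (0.182 and 0.457), and the first also with all 15 libraries in 1 fit (0.0593). Nucleotide 1098, an A after UUUG, was the highest in every untreated and CaCl2 + MNase library and in CaCl2 replicates 1 and 3. It stood at 1710, 1739 and 1820 CPM untreated, at 1527, 1548 and 1315 CPM with CaCl2 and at 1207, 1381 and 1436 CPM with CaCl2 + MNase. With MnCl2 it stood at 978, 1166 and 1067 CPM, and with MnCl2 + DNase I at 1133, 1102 and 1018 CPM, below every other library (log2 change from untreated -0.72 ± 0.14 SE, adjusted p = 0.000376, and -0.70 ± 0.10, adjusted p = 3.81e-05). Its rank among the 1132 positions was 4 with MnCl2 and 7 with MnCl2 + DNase I.

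Nucleotide 238 had the largest fall with MnCl2 among these 10. Its untreated values were 802, 895 and 987 CPM. They were 437, 379 and 461 CPM with CaCl2, and 282, 350 and 331 CPM with MnCl2. The 3 groups did not overlap (MnCl2 against untreated, log2 change -1.48 ± 0.12, adjusted p = 2.55e-07; CaCl2 against untreated, -1.07 ± 0.15, adjusted p = 0.00187). A little further downstream, nucleotide 247 moved the other way with manganese. It held 848, 1048 and 940 CPM untreated, 1161, 1418 and 1317 CPM with MnCl2 and 1430, 1661 and 1876 CPM with MnCl2 + DNase I, and had the highest mean of any position of the stretch with MnCl2 (1299 CPM, against 1295 CPM at nucleotide 520; log2 change 0.46 ± 0.14, adjusted p = 0.00944; with DNase I 0.80 ± 0.12, adjusted p = 6.81e-05). The highest position differed among MnCl2 libraries: it was nucleotide 520 in replicate 1, nucleotide 247 in replicate 2 and nucleotide 521 in replicate 3. With CaCl2 nucleotide 247 stood at 1173, 765 and 1098 CPM and overlapped the untreated libraries (adjusted p = 0.797).

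Nucleotide 1022, a U after GGGG, fell with all 4 treatments. It went from 964, 1116 and 1090 CPM untreated to 587, 519 and 497 CPM with CaCl2 and to 497, 619 and 574 CPM with MnCl2 (log2 change -0.98 ± 0.15, adjusted p = 0.00267, and -0.91 ± 0.13, adjusted p = 2.96e-05). With MnCl2 + DNase I it held 734, 752 and 715 CPM, above every MnCl2 library, and that last difference was not called (adjusted p = 0.0766). Nucleotide 709 fell from 1044, 1232 and 1229 CPM to 646, 778 and 752 CPM with MnCl2 (log2 change -0.69 ± 0.13, adjusted p = 0.00041). Nucleotide 372 fell with MnCl2 as well, from 1300, 1397 and 1430 CPM to 618, 1042 and 931 CPM (log2 change -0.70 ± 0.18, adjusted p = 0.00305), and CaCl2 replicate 2 was its highest library at 1612 CPM, above nucleotide 1098 there.

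Of the other high positions, nucleotide 130 was called lower with CaCl2 + MNase only among the comparisons with untreated (log2 change -0.48 ± 0.14, adjusted p = 0.0186; 0.0539 without CaCl2 + MNase replicate 1). Nucleotide 163 fell with CaCl2 (log2 change -0.76 ± 0.18, adjusted p = 0.017; 0.0628 without untreated replicate 1 and 0.0742 without replicate 3) and with CaCl2 + MNase (-0.65 ± 0.16, adjusted p = 0.0102). Nucleotide 687, a U, held 945, 1093 and 1109 CPM untreated and passed in none of the 7 comparisons. Its log2 change with MnCl2 was -0.04 ± 0.13 (limma, adjusted p = 0.825). With MnCl2 + DNase I it was 0.23 ± 0.10 (adjusted p = 0.0574), which passed under median-ratio scaling (0.00483) and by edgeR (0.00143).

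Nucleotide 980 separated manganese from calcium. It held 372, 391 and 384 CPM untreated, 403, 258 and 390 CPM with CaCl2 and 333, 395 and 421 CPM with CaCl2 + MNase. With MnCl2 it rose to 842, 928 and 1055 CPM, and with MnCl2 + DNase I it held 1059, 1162 and 1091 CPM. No manganese library overlapped any other library (MnCl2 against CaCl2, log2 change 1.45 ± 0.20, adjusted p = 0.000709; MnCl2 against untreated, 1.29 ± 0.12, adjusted p = 5.28e-07). Nucleotide 956, the other position picked for a rise from CaCl2 to MnCl2, went from 91.8, 48.3 and 83.6 CPM to 199, 153 and 162 CPM (log2 change 1.23 ± 0.24, adjusted p = 0.00364).

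**Figure D4:**
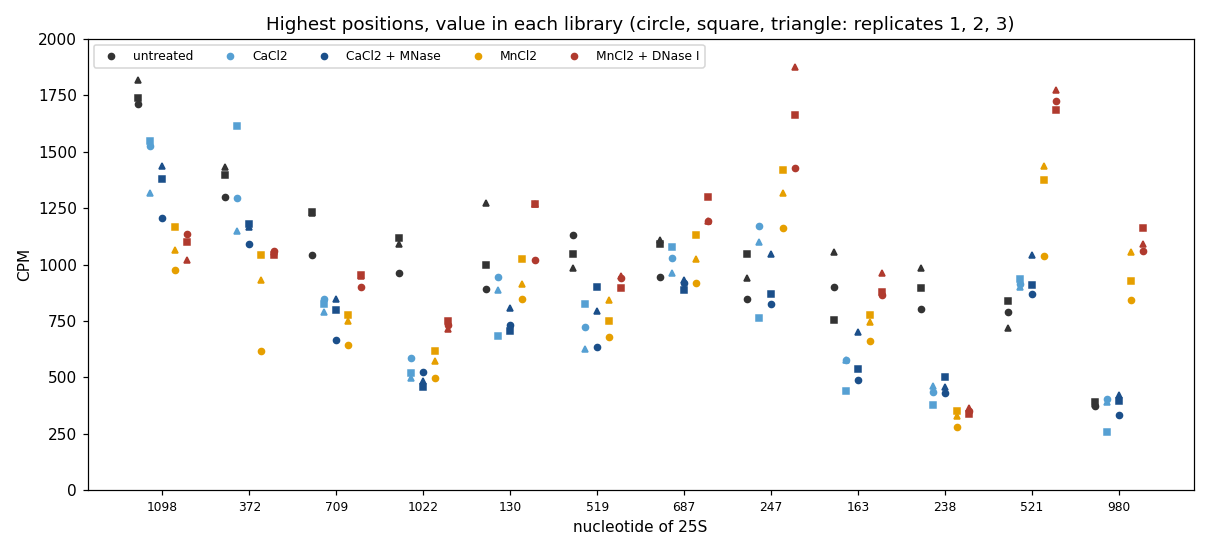
CPM in each library (y axis) at the 10 highest untreated positions, in order of their untreated mean, followed by nucleotides 521 and 980 (x axis, nucleotide of 25S; colours mark groups and symbols mark replicates). Nucleotide 980 is higher in all 6 manganese libraries than in any other, and nucleotide 238 is highest in the 3 untreated ones.

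Nucleotides 518 to 522 formed a compact peak in every group, and its centre shifted between them. Summed over the 5 positions, it held 4034, 4034 and 3499 CPM untreated, 4223, 4946 and 5133 CPM with MnCl2 and 5992, 5743 and 5982 CPM with MnCl2 + DNase I. In untreated libraries nucleotide 519 was the highest of the 5 (1054 ± 73.0 CPM, SD, n = 3), and nucleotide 521 stood at 783 ± 59.5 CPM. With CaCl2, CaCl2 + MNase and MnCl2 nucleotide 520 led, at means of 979, 1003 and 1295 CPM. Nucleotide 521 lay above nucleotide 519 in the calcium groups too, at 916 against 725 CPM with CaCl2 and 941 against 776 CPM with CaCl2 + MNase. With MnCl2 + DNase I nucleotide 521 led with 1727 ± 43.4 CPM and nucleotide 519 stood at 930 ± 28.6 CPM. Nucleotide 521 had the highest mean of the whole 5′ stretch in that group, and in its replicate 3 nucleotide 247 was higher (log2 change from untreated 1.14 ± 0.10, adjusted p = 3.32e-07). Nucleotide 519 fell with MnCl2 (-0.48 ± 0.13, adjusted p = 0.00481), and edgeR on the recovered reads did not call it (adjusted p = 0.0642). With CaCl2 it fell by 0.55 on the log2 scale (adjusted p = 0.0376), a call that was lost with the replicate block (0.0928), without any one untreated library (0.0911 to 0.135), without CaCl2 replicate 1 (0.0913) and without CaCl2 replicate 3 (0.0845).

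Changed positions ran together along the gene. The runs below were picked as the longest of each comparison, so their sums are given without a test. Nucleotides 483 to 513, a stretch of 31 positions ahead of the peak above, were all higher with MnCl2 than untreated. They summed to 3193, 3221 and 2582 CPM untreated, 4636, 4392 and 4099 CPM with CaCl2, 4596, 4430 and 4297 CPM in CaCl2 + MNase libraries, 7442, 6160 and 6247 CPM with MnCl2 and 5937, 5390 and 5740 CPM with MnCl2 + DNase I. Untreated libraries were the lowest, calcium libraries came next and manganese libraries were the highest, with no overlap between the 3. Downstream of the peak, nucleotides 533 to 548 were the longest run lower with MnCl2 + DNase I (1035, 1042 and 1145 CPM untreated against 572, 630 and 563 CPM).

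The longest run lower with MnCl2 was nucleotides 1009 to 1023, which end in the GGGGUC around nucleotide 1022 and are 46.7% G. They summed to 3176, 3484 and 3388 CPM untreated and 1467, 1927 and 1887 CPM with MnCl2, while MnCl2 + DNase I gave 2238, 2241 and 2251 CPM and CaCl2 gave 2207, 2099 and 2093 CPM. Nucleotides 213 to 222 were the longest run lower with CaCl2 + MNase, and their first 5 positions the longest lower with CaCl2. Those 10 positions held 2118, 2396 and 2842 CPM untreated, 1310, 1276 and 1363 CPM with CaCl2 + MNase and 1054, 1082 and 1159 CPM with MnCl2. In the other direction, nucleotides 941 to 958 were the longest run higher with CaCl2 + MNase. They rose from 1885, 1872 and 1677 CPM to 2789, 2631 and 2631 CPM, and held 3910, 3233 and 3300 CPM with MnCl2. From CaCl2 to MnCl2, the longest run lower was nucleotides 336 to 344, at 1611, 2129 and 1803 CPM against 933, 1106 and 1129 CPM.

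The 2 largest falls and the 2 largest rises of the 5′ stretch with MnCl2 lay at low positions, in a dip at nucleotides 649 to 655 and at the 5′ end of 25S. Over nucleotides 649 to 655 the untreated sums were 144, 137 and 125 CPM. They were 61.1, 69.6 and 78.3 CPM with CaCl2, 86.5, 111 and 104 CPM in CaCl2 + MNase libraries, 17.6, 19.6 and 18.2 CPM with MnCl2 and 14.8, 11.6 and 21.1 CPM with MnCl2 + DNase I. Untreated libraries were the highest, then CaCl2 + MNase, then CaCl2, with no overlap between these groups. The manganese libraries were the lowest, and their 2 groups overlapped. This window was set around nucleotide 652, which was picked for its fall, so the order against untreated is a description. Signal was already low at nucleotides 646 to 648 (untreated means 4.82, 5.50 and 4.90 CPM, with MnCl2 6.96, 3.64 and 1.77 CPM). Inside the window, nucleotides 652 and 653 were the highest in untreated libraries, at means of 32.7 and 53.7 CPM. Nucleotides 651, 654 and 655 had higher means than untreated in both calcium groups. Their means were 10.8, 12.1 and 15.1 CPM with CaCl2 and 24.5, 17.2 and 22.2 CPM with CaCl2 + MNase. Untreated means were 6.27, 9.71 and 11.8 CPM. At nucleotide 651 the high libraries were CaCl2 replicate 3 (22.5 CPM) and CaCl2 + MNase replicates 1 and 3 (30.6 and 32.1 CPM). The other calcium libraries held 3.84, 6.02 and 10.8 CPM there. Nucleotide 652 had the largest fall of the 5′ stretch with MnCl2, from 34.9, 32.9 and 30.5 CPM to 1.76, 1.21 and 0.635 CPM (log2 change -3.97 ± 0.22, adjusted p = 4.83e-09), a 27.2-fold lower mean. The MnCl2 values rest on 5, 5 and 3 reads and the untreated ones on 240, 181 and 150 reads. It also fell with CaCl2, to 6.28, 6.58 and 3.77 CPM (log2 change -2.39 ± 0.28, adjusted p = 0.000941), and with CaCl2 + MNase (-2.21 ± 0.22, adjusted p = 0.000173).

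Nucleotide 653 fell with MnCl2 from 57.8, 55.2 and 48.2 CPM to 2.47, 2.66 and 3.38 CPM (log2 change -3.84 ± 0.19, adjusted p = 1.25e-09). With CaCl2 it held 15.7, 17.1 and 10.6 CPM, and was lower with MnCl2 than with CaCl2 too (log2 change -1.99 ± 0.32, adjusted p = 0.00155). Nucleotide 650 was the other position picked for a fall from CaCl2 to MnCl2, from 10.5, 11.8 and 3.61 CPM to 1.76, 2.18 and 0.846 CPM (log2 change -1.80 ± 0.46, adjusted p = 0.0132; 0.061 without MnCl2 replicate 3). At nucleotide 649 one MnCl2 + DNase I library held 0 reads, the only zero in the 5′ stretch, and the other 2 held 4 and 3. The signal rose steeply just after the dip. Nucleotide 660 stood at 289 ± 18.7 CPM untreated and 300 ± 18.5 CPM with MnCl2 (SD, n = 3). There CaCl2 replicate 2 held 705 CPM, against 253 and 249 CPM in the other CaCl2 libraries.

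At the 5′ end, neighbouring nucleotides moved in opposite directions. The first 10 nucleotides summed to only 135, 143 and 142 CPM untreated and 288, 210 and 250 CPM with MnCl2. At nucleotides 1 and 2 the lowest value of any library rested on 6 reads. Nucleotide 1, a G, fell with MnCl2 from 7.99, 8.89 and 10.98 CPM to 2.47, 3.63 and 3.38 CPM (log2 change -1.31 ± 0.21, adjusted p = 0.000108). Nucleotide 2, a U, fell in all 4 treated groups. The untreated values were 27.3, 33.4 and 32.7 CPM, against 4.88, 4.33 and 5.18 CPM with CaCl2 and 2.12, 2.18 and 3.17 CPM with MnCl2 (log2 change -2.47 ± 0.25, adjusted p = 0.000487, and -3.21 ± 0.20, adjusted p = 1.38e-08).

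The next 3 nucleotides rose in all 4 treated groups. Nucleotide 3 went from 18.01, 18.3 and 15.7 CPM to 112, 70.1 and 92.0 CPM with MnCl2 (log2 change 2.31 ± 0.18, adjusted p = 1.3e-07), and with CaCl2 to 63.9, 34.04 and 39.03 CPM (1.30 ± 0.28, adjusted p = 0.0105; 0.0531 without untreated replicate 3). Nucleotide 4 had the largest rise of the stretch with MnCl2, from 14.5, 11.6 and 13.2 CPM to 108, 81.3 and 95.4 CPM (log2 change 2.76 ± 0.17, adjusted p = 9.9e-09). With CaCl2 it reached 64.5, 44.9 and 50.6 CPM (1.93 ± 0.23, adjusted p = 0.00106), and no library of one cation overlapped those of the other. Nucleotide 5 went from 6.39, 5.99 and 6.91 CPM to 23.7, 20.1 and 23.6 CPM with CaCl2 (1.66 ± 0.25, adjusted p = 0.0027). In untreated libraries nucleotide 2 was thus the highest of the first 5, and in the 12 treated libraries nucleotide 3 or 4 was. At the other end of the stretch, nucleotide 1132 held 63.2, 68.97 and 55.3 CPM untreated and 92.1, 88.0 and 83.2 CPM with CaCl2 + MNase (log2 change 0.49 ± 0.13, adjusted p = 0.0125).

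**Figure D5:**
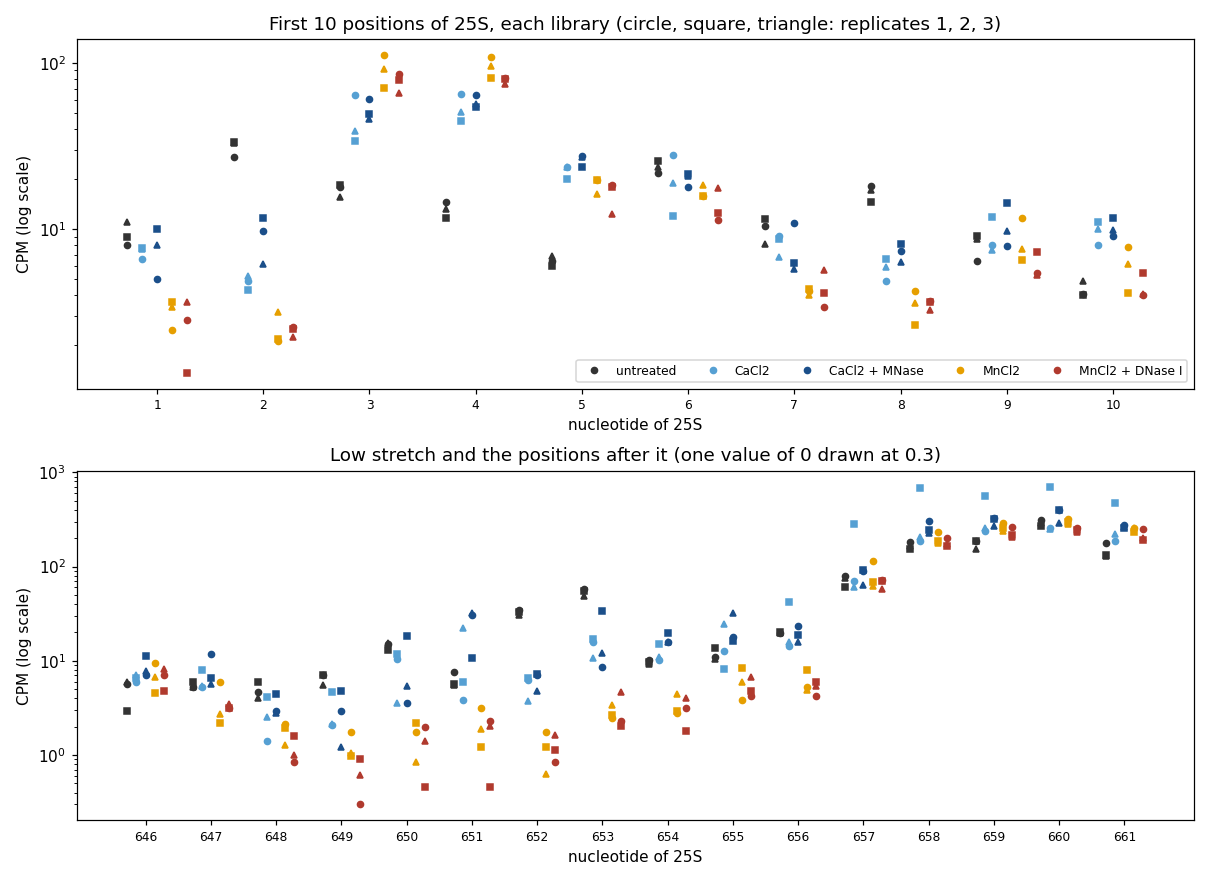
CPM in each library on a log axis at the first 10 nucleotides of 25S (top) and at nucleotides 646 to 661 (bottom; the single 0 is drawn at 0.3); colours mark groups and symbols mark replicates. Nucleotide 2 falls and nucleotides 3 to 5 rise in all treated libraries, and nucleotides 652 and 653 are lowest in the 6 manganese libraries.

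The 2 largest rises of the stretch with CaCl2 + MNase varied between libraries. Nucleotide 136, a G, held 27.2, 21.8 and 31.5 CPM untreated and 347, 62.1 and 140 CPM with CaCl2 + MNase (log2 change 2.40 ± 0.52, adjusted p = 0.00511). With CaCl2 it held 54.8, 46.6 and 267 CPM, so that 1 library without nuclease was higher than 2 of the 3 with it. Nucleotide 867, also a G, behaved alike, with 14.7, 14.5 and 16.5 CPM untreated, 36.3, 28.2 and 78.8 CPM with CaCl2 and 90.6, 43.2 and 117 CPM with CaCl2 + MNase (log2 change from untreated 2.27 ± 0.33, adjusted p = 0.00089). At both, CaCl2 replicate 3 and CaCl2 + MNase replicates 1 and 3 were the high libraries.

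The last question was whether the RNA's terminal nucleotide differed between groups. Ends in A were over-represented: A makes up 27.7% of the positions but 39.4% ± 0.971 (SD, n = 3) of the untreated signal, while G makes up 29.1% of positions and 23.5% ± 0.293 of the signal. The share ending in A was 36.3% ± 1.39 with CaCl2, 35.4% ± 1.55 in CaCl2 + MNase libraries, 36.3% ± 1.39 with MnCl2 and 37.7% ± 0.116 with MnCl2 + DNase I, below every untreated library in all 12 treated ones (exact permutation p = 0.0184, adjusted p = 0.0322; 0.231 without replicate 1 of each group and 0.235 without replicate 3). The signal went to different nucleotides with the 2 cations. Ends in G rose to 25.4% ± 0.820 with CaCl2 and 26.1% ± 0.424 with CaCl2 + MNase but stood at 23.1% ± 0.213 with MnCl2 and 22.8% ± 0.386 with MnCl2 + DNase I (adjusted exact permutation p = 0.00116; 0.0741 without replicate 3). Ends in U went from 22.7% ± 0.622 to 25.1% ± 0.939 with MnCl2 and 24.2% ± 0.152 with MnCl2 + DNase I, and stood at 23.4% with each calcium group (adjusted exact permutation p = 0.0315; 0.364 without replicate 1, 0.235 without replicate 3 and 0.0634 with the replicate block). Ends in C did not pass (adjusted p = 0.193).

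By the deposited scaling, the counts of changed positions set A apart in the calcium groups and U in the manganese groups. They were not made per base over the gene or under another scaling, on which the split into higher and lower depended. With CaCl2 + MNase, where 50.6% of the stretch was called, 41.0% of the 329 G positions were called higher, 38.6% of the 290 U positions and 34% of the 200 C positions, against 23.6% of the 313 A positions. Called lower were 26.8% of A positions and 10.3% to 14% of the others. With CaCl2 alone 27.7% was called. G and U positions were again near each other, at 21.0% and 22.1% called higher, with 11.8% of A positions. These counts thus do not single out G as the share of signal did. With MnCl2, where 64.5% was called, 40.0% of U positions were called higher and 23.8% lower, against 24.0% higher and 40.6% lower of A positions. With MnCl2 + DNase I, where 68.7% was called, 38.6% of U positions were called higher and 29.7% lower. Of A positions 29.7% were called higher and 41.2% lower. The median log2 change with MnCl2 was 0.18 at U positions, -0.15 at A positions, -0.13 at C positions and -0.09 at G positions. Many of these shares of signal moved alike elsewhere on the gene. From untreated to MnCl2, ends in A went from 32.3% to 30.9% in the middle stretch of 25S and from 36.8% to 33.96% in 18S. Ends in U went from 22.5% to 24.1% and from 25.6% to 28.9% there. With CaCl2, ends in G went from 24.8% to 27.2% in the middle stretch and from 22.9% to 25.4% in the 3′ stretch. In the 3′ stretch ends in G also stood at 25.8% with MnCl2, unlike in the 5′ stretch. Whether the 5′ stretch differs from these parts was not tested.

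Taking the terminal nucleotide with the next one downstream, which the polymerase had still to add, 15 of the 16 dinucleotides differed among the 5 groups (exact permutation test, adjusted over 16), and AA did not (adjusted p = 0.118). Without replicate 1, 2 or 3 of each group, 11, 10 and 6 passed. The smallest p was that of UU, a U end before a U. It held 5.30% ± 0.153 (SD, n = 3) of the untreated signal, 5.88% ± 0.273 with CaCl2, 5.97% ± 0.0627 in CaCl2 + MNase libraries, 7.002% ± 0.231 with MnCl2 and 6.67% ± 0.0550 with MnCl2 + DNase I (exact permutation p = 6.42e-06, adjusted p = 0.000103). UU makes up 7.07% of the positions. AG was the reverse, at 10.2% ± 0.220 untreated and 8.47%, 8.32%, 8.18% and 7.92% in the treated groups in the same order (adjusted exact permutation p = 0.00415), and no treated library reached an untreated one. It missed the threshold without replicate 1, 2 or 3 of each group (adjusted p = 0.0522, 0.0508 and 0.0656).

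Some dinucleotides set the cations apart. UC held 3.95% untreated, 3.34% with CaCl2 and 4.33% with MnCl2, so that it went down with calcium and up with manganese, with no overlap between these 3 groups (adjusted exact permutation p = 0.000225). GU held 5.45% untreated, 5.85% with CaCl2, 6.28% in CaCl2 + MNase libraries, 5.52% with MnCl2 and 5.34% with MnCl2 + DNase I (adjusted exact permutation p = 0.000225). GG went from 6.25% untreated to 6.48% with CaCl2, 6.83% in CaCl2 + MNase libraries, 5.44% with MnCl2 and 5.13% with MnCl2 + DNase I (adjusted exact permutation p = 0.00026). The GC content of the last 10 nucleotides of the RNA, weighted by signal, differed little, from 46.6% untreated to 47.4% with MnCl2 + DNase I against a mean of 46.6% over positions (adjusted exact permutation p = 0.0451; 0.15 without the 11 highest positions, 0.376 without replicate 1 and 0.497 without replicate 3).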

How the data were processed

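Libraries were made and processed by the authors, who removed duplicate reads by their molecular identifier, trimmed adaptors with cutadapt 3.4, aligned with STAR 2.7.1a to R64 and tallied the 3′ end of each read with bedtools 2.28.0. The deposited values are CPM, which the authors obtained by dividing each position by the library's total over the 35S gene up to position 6739. The deposited tables also hold the authors' ratios and p-values, which were not used. CPM values were whole multiples of 1 read (tolerance 0.02 read) at 99.7% or more of the positions of each library. Replicate 3 of the CaCl2 and of the CaCl2 + MNase group had a less certain step, and so a less certain depth. The 5′ stretch was measured in 15 libraries, 3 in each of 5 groups.

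Each pair of groups was compared with limma 3.58.1 (R 4.3.3; trend) on log2(CPM + 1), a scale that understates changes of low positions, in the 6 libraries of the pair, at positions above 0 in at least 3, with Benjamini-Hochberg adjustment over all positions of the gene and a threshold of 0.05. The fit was tested on simulated data. It stood in for the per-position test of the study's methods. The 14 single-value measures and the 16 dinucleotides were tested by exact permutation over all 1401400 partitions of 15 libraries into 5 groups, one-sided for a large F ratio; pairs were two-sided, and the nuclease difference used 400 arrangements. Alternatives were pseudocounts of 0.1 and 10, no filter, a mean of at least 10 CPM, median-ratio scaling, scaling to the stretch's sum, all 15 libraries in 1 fit, edgeR 4.0.16, a replicate block, removal or capping of the highest positions, the share of the rRNA genes, and leaving out each library. Replicate numbers deviated together in MnCl2 against CaCl2 (correlations over all positions 0.148, 0.2135 and 0.114). Over all positions they did so more weakly in MnCl2 + DNase I against MnCl2 (0.0442, 0.0889 and 0.0981). Within the 5′ stretch the order of these 2 comparisons was reversed.

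Named positions were the 10 highest in untreated libraries, the highest of each other group, the 2 largest rises and 2 largest falls per comparison among called positions without overlap, and the first and last position. Members and lists were chosen with earlier results of these data known.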

Additional observations from a re-analysis of the deposited data

How the results depend on the processing

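No called change at a named position turned direction under any alternative that was run, and the counts for CaCl2 + MNase, MnCl2 and MnCl2 + DNase I against untreated stayed within 1.5 times of those reported. With all 15 libraries in 1 fit, CaCl2 against untreated gave 499 positions and MnCl2 against CaCl2 gave 572. MnCl2 + DNase I against MnCl2 gave 0 with a pseudocount of 10, with no filter, with all 15 libraries in 1 fit and with the replicate block, and 1 when scaled to the sum of the 5′ stretch. Leaving out 1 library gave 116 to 429 positions for CaCl2 against untreated, 205 to 464 for MnCl2 against CaCl2 and 0 to 37 for MnCl2 + DNase I against MnCl2. The majority of changed positions became higher in the manganese groups with edgeR, at 63.1% of 764 with MnCl2 and 64.1% of 792 with MnCl2 + DNase I, against 48.1% and 46.1%.

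With the replicate number as a block, 5 of the 14 measures passed, with an adjusted exact p of 0.0634 for the share of 35S and for the ratio to 18S. Leaving out 1 replicate number gave 0 to 9 of 14 measures and 6 to 11 of 16 dinucleotides, and leaving out CaCl2 replicate 2 alone, an alternative chosen after seeing the data, gave 10 and 15, as with all libraries. Over these alternatives adjusted exact p-values ran from 0.0405 to 0.235 for the share of 35S, 0.00342 to 0.119 for the ratio to the middle stretch, 0.000719 to 0.0667 for the ratio to the 3′ stretch and 0.0316 to 0.235 for the ratio to 18S; with 2 libraries in every group only 945 partitions exist. Blocked counts for the other comparisons stayed within 1.5 times. Over all positions, replicate numbers paired the libraries in MnCl2 against CaCl2 and, more weakly, in MnCl2 + DNase I against MnCl2. The latter correlations were 0.0442, 0.0889 and 0.0981 over all positions and 0.106, 0.231 and 0.127 within the 5′ stretch alone. For MnCl2 against CaCl2 they were 0.0635, 0.0872 and -0.0665 within the 5′ stretch, where libraries of unlike number reached 0.098. The pairing of that comparison was thus not seen within the stretch. In the other comparisons replicate numbers did not pair the libraries over all positions. edgeR was not run for comparisons with calcium libraries, whose reads were not recovered with certainty in 2 of 6. Depth limits nucleotides 649 to 655 in manganese libraries, where a value rests on 0 to 35 reads. It also limits nucleotides 1 and 2, where the lowest value rests on 6 reads at each.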
